A study of Mus musculus with 48 samples.

Results

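Acetylcholine acts on neurons through nicotinic receptors, which are ion channels, and muscarinic receptors, which couple to G proteins. The 10 receptor genes described here were picked by name from a table of 23284 genes: the nicotinic alpha subunits Chrna3, Chrna4, Chrna5 and Chrna7, the nicotinic beta subunits Chrnb2 and Chrnb4, and the muscarinic receptors Chrm1, Chrm2, Chrm3 and Chrm4. They were picked with the higher level of Chrna3 in the GnRH neuron fraction already known, so levels in that fraction against the rest of the tissue are given as a description, with no test. All 10 genes passed the filter on low counts in each fit.

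RNA came from preoptic area punches of mice, female by the study's design text and title, although a protocol note also mentions both sexes. Offspring of GnRH CRE fathers and mothers with floxed L10a-GFP express a GFP-tagged ribosomal protein in GnRH neurons, the cells that drive the pituitary release of gonadotropins. Libraries were made from an immunoprecipitate (IP), enriched for ribosome-bound RNA of GnRH neurons, and from a supernatant depleted of it. Mice were adult (collected in diestrus) or young (prepubertal), after prenatal dihydrotestosterone (DHT) or vehicle. All of them carried both alleles, so the 4 conditions differed in age and prenatal treatment. There were 6 adult DHT, 5 adult vehicle, 6 young DHT and 6 young vehicle libraries of each fraction. A single young no-Cre pair, with the floxed L10a-GFP allele and no Cre, gave 1 IP and 1 supernatant as negative controls. The tag is limited to cells in which Cre acted at any time before collection, the IP is an enrichment and not a sort, and the labels do not say whether a library is 1 mouse or a pool.

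The 23 IPs of mice with Cre held 28672556 to 47054029 counts each, and the 23 supernatants 28136000 to 55479451 counts each. Levels are given as CPM, counts per 1000000 counts of the library. Gnrh1, the gene of the hormone itself, averaged 5110 CPM in IPs and 34.8 CPM in supernatants over the 4 conditions, and was higher in IP in 23 of 23 pairs with the same condition and number. In the no-Cre pair it was at 61.6 CPM in IP and 38.2 CPM in supernatant. All 4 markers fixed for GnRH neurons were higher in IP (edgeR's quasi-likelihood test, adjusted p below 0.05), against 5 of 7 markers of basal forebrain cholinergic neurons, 4 of 5 of astrocytes and 3 of 5 of oligodendrocytes that were lower in IP. Fewer were lower for microglia (1 of 5), oligodendrocyte precursors (1 of 3), mural cells (1 of 3) and endothelial cells (0 of 3). General neuron markers had 2 of 5 higher and 1 lower. GABA and glutamate neuron markers each had 1 higher and 1 lower, of 3 and 2. Of all genes, 24.4% were higher and 21.7% lower in IP. In bulk RNA, fewer cells of a type and less RNA per cell cannot be told apart.

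Nicotinic receptors are rings of 5 subunits around a cation channel. The pairing of Chrna4 with Chrnb2 and the ring of Chrna7 alone are the main forms in the brain, whereas Chrna3 with Chrnb4 is best known from autonomic ganglia and the medial habenula, where Chrna5 joins as an accessory subunit. Chrm1 and Chrm3 encode receptors that act through Gq and close the potassium channels of the M-current. Chrm2 and Chrm4 encode receptors that act through Gi/o, lower cyclic AMP and open inwardly rectifying potassium channels. Cholinergic neurons of the basal forebrain lie close to the preoptic area.

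Chrna5, Chrna3 and Chrnb4 are neighbours on chromosome 9 (GRCm38, GENCODE M21). Chrna5 lies at chr9:54980880-55007779 on the plus strand, Chrna3 at chr9:55010111-55026562 on the minus strand and Chrnb4 at chr9:55028154-55048779 on the minus strand. The gaps are 2331 bases between the ends of Chrna5 and Chrna3 and 1591 bases between the start of Chrna3 and the end of Chrnb4. Chrna5 and Chrna3 thus end facing each other, and Chrna3 and Chrnb4 are read in the same direction. The 250 bases before the RefSeq starts of Chrna5 and Chrna3 are shown because these alpha genes lie side by side and differ in level. They are taken from RefSeq's GRCm38.p6 set, run 5′ to 3′ on the gene's own strand, and carry matches to the GC box GGGCGG (either strand) in capitals.
Chrna5, chr9:54980630-54980879, plus strand: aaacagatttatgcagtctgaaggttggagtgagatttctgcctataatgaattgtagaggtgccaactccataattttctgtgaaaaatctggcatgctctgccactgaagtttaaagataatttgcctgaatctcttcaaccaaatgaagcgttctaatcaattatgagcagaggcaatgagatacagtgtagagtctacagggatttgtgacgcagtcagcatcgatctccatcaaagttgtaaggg
Chrna3, chr9:55026563-55026812, minus strand: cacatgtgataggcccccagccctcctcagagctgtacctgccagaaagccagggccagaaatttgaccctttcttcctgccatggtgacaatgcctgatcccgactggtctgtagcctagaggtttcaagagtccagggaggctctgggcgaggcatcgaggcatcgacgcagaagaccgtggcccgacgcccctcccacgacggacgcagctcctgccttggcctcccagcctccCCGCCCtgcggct

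The window of Chrna3 was 63.2% G and C, with 1 GC box that ends 7 bases before the start. Before Chrna5 the share was 40.0%, with no GC box. Of 32817 windows of that length, 32.7% held a GC box on either strand. Neither window held TATAAA, found in 12.4% of windows, or CCAAT, found in 33.8%. The palindromic E-box CANNTG, found in 66.2% of windows, occurred 1 time before Chrna5 and 2 times before Chrna3, and no match overlapped the GC box. RefSeq's window for Chrnb4 lies largely inside an exon that GENCODE gives the gene and is not shown. These letters are a description of the windows and say nothing of which factor binds there.

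Some counts may hold reads of other genes, since the library kit does not mark strand. Of the 8380 exon bases of Chrnb2, 1365 (16.3%) are shared with Adar on the opposite strand. Chrnb4 overlaps the antisense gene Gm47877, with 0 exon bases shared. Chrna7 and Chrm1 each overlap 1 other annotated gene, Chrm2 overlaps 2 and Chrm3 overlaps 6, none of them annotated as protein coding. Chrna3, Chrna4, Chrna5 and Chrm4 overlap no annotated gene.

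Of the 10 genes, 2 had a mean at least 2-fold higher in IP than in supernatant, Chrnb4 and Chrna3, a size reached by 4.54% of the 16660 genes tested. None had a mean at least 2-fold lower with all libraries, a size reached by 4.93% of genes. The other 8 had a lower mean in IP, with ratios of IP to supernatant between 0.533 for Chrm3 and 0.921 for Chrna5. The sizes rest in part on single IPs. Without adult DHT replicate 4 the log2 ratio of Chrna5 was -1.14, against -0.12 with all libraries, and it turned to 0.03 without adult DHT replicate 3. Without adult vehicle replicate 2 it was -1.23 for Chrna7 and -1.002 for Chrnb2, against -0.82 and -0.78. For Chrm3 it was -1.04 without adult DHT replicate 6 and -1.01 without young vehicle replicate 5, against -0.91. The rule that chose the genes used this contrast, so nothing is read from these counts.

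Chrnb4, the beta subunit that pairs with Chrna3, averaged 8.05 CPM in IPs and 1.05 CPM in supernatants, a ratio of 7.64. In adult DHT mice, IPs ran from 0.142 to 17.2 CPM (median 8.36) and supernatants from 0.852 to 4.21 CPM (median 1.1). In adult vehicle mice, IPs had 15.1, 10.04, 7.16, 10.7 and 5.45 CPM, and supernatants 1.26, 0.859, 1.46, 0.909 and 0.901 CPM. Every adult vehicle IP lay above every adult vehicle supernatant, as for 4.83% of genes, while the adult DHT groups overlapped, with IPs at 0.142 and 1.52 CPM and a supernatant at 4.21 CPM. Young DHT IPs ran from 0.253 to 11.3 CPM (median 8.19), against 0.275 to 1.137 CPM (median 0.704) in young DHT supernatants. Young vehicle IPs ran from 3.55 to 10.6 CPM (median 7.61), against 0.632 to 1.04 CPM (median 0.72) in young vehicle supernatants. The young vehicle groups did not overlap either, as for 7.25% of genes, and the young DHT groups overlapped through replicate 2 at 0.253 CPM.

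The ratio of means for Chrnb4 was 4.83 in adult DHT, 9.01 in adult vehicle, 10.2 in young DHT and 9.34 in young vehicle mice. IP was higher in 21 of 23 pairs. The 2 exceptions were adult DHT replicate 1 and young DHT replicate 2. In the no-Cre pair, Chrnb4 had 30 counts in IP (0.924 CPM, exact Poisson 95% interval 0.623 to 1.32) and 26 counts in supernatant (0.698 CPM), a ratio of 1.32. The level in the no-Cre IP was thus in the range of the supernatants, and 21 of the 23 IPs with Cre lay above it. Poisson intervals cover counting error only.

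Chrna3, the alpha subunit of the same receptor, averaged 5.39 CPM in IPs and 2.29 CPM in supernatants, a ratio of 2.36 that varied from library to library. In adult DHT mice, IPs ran from 0.0425 to 6.81 CPM (median 1.28) and supernatants from 2.41 to 3.54 CPM (median 2.85). In adult vehicle mice, IPs had 0.0, 19.7, 2.63, 13.6 and 22.4 CPM, and supernatants 1.53, 3.15, 2.2, 2.25 and 2.27 CPM. Replicate 1 of the adult vehicle IPs had no count, while 3 of its group held the highest levels of the gene in the study. Young DHT IPs ran from 3.02 to 7.16 CPM (median 4.73), against 1.26 to 3.45 CPM (median 1.91) in young DHT supernatants. Young vehicle IPs ran from 0.15 to 4.32 CPM (median 2.78), against 1.09 to 3.16 CPM (median 1.83) in young vehicle supernatants. The fractions overlapped in all 4 conditions.

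The ratio of means for Chrna3 was 0.94 in adult DHT, 5.13 in adult vehicle, 2.31 in young DHT and 1.27 in young vehicle mice. IP was higher in 16 of 23 pairs. Over pairs, the log2 ratio of CPM + 0.1 had a median of 0.73 but a mean of 0.09 ± 2.2 (SD), with the low IPs far below their supernatants. In the no-Cre pair, Chrna3 had 1 count in IP (0.0308 CPM) and 96 counts in supernatant (2.58 CPM). With the adult libraries of both fractions left out, the log2 ratio of means was 0.85 for Chrna3 and 3.29 for Chrnb4, against 1.24 and 2.93 with all libraries.

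**Figure D1:**
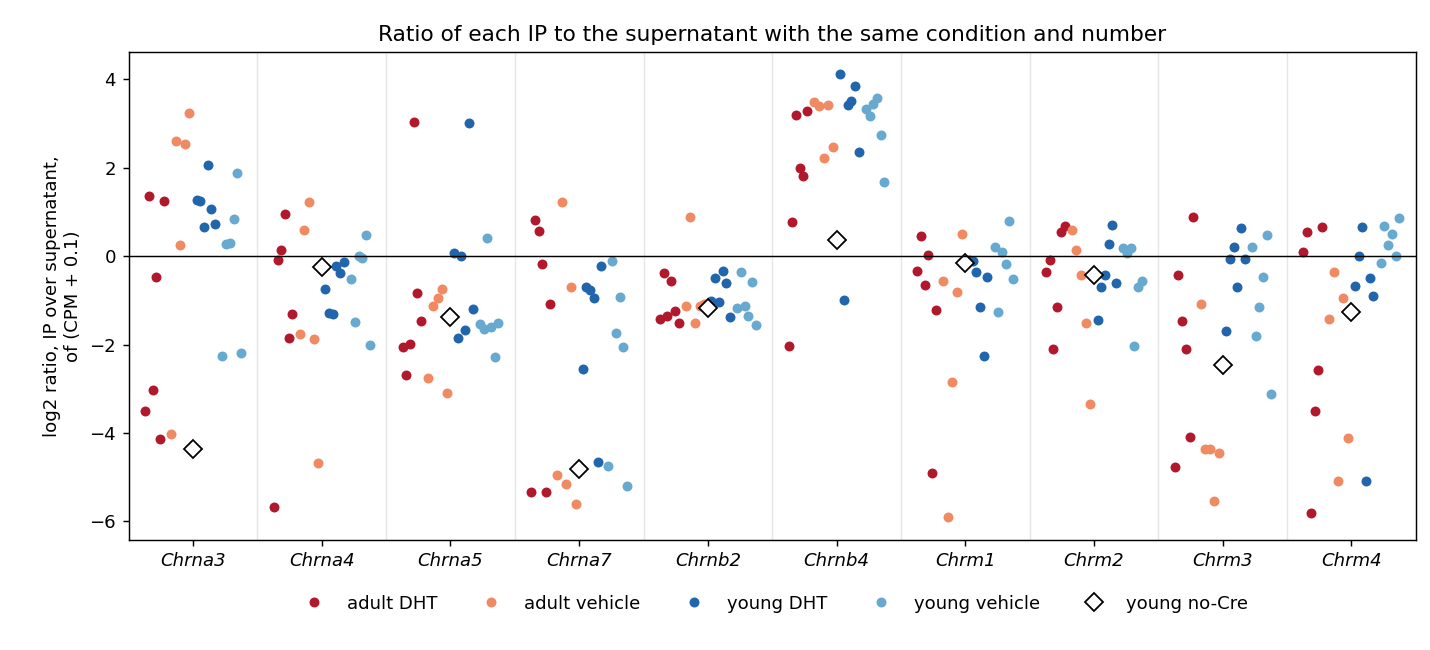
Log2 ratio of IP over supernatant, of CPM + 0.1, for each gene and each pair of libraries with the same condition and number; filled points are pairs from mice with Cre, coloured by condition, and open diamonds are the no-Cre pair. Chrnb4 lies above 0 in 21 of 23 pairs and Chrna3 in 16. Chrna3, Chrna4, Chrna7, Chrm1, Chrm3 and Chrm4 each have pairs far below 0.

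Chrna3 and Chrnb4 encode partners of 1 receptor and are neighbours on the chromosome, but no relation between their levels was detected over the 23 IPs. On the log2(CPM + 0.5) scale, Pearson's r was 0.108 (permutation p = 0.631) and Spearman's rho 0.086 (permutation p = 0.697). The adjusted p over the 6 tests of 3 relations was 0.988 for each coefficient. Pearson's r was 0.151 in the 11 adult IPs and 0.0161 in the 12 young IPs, 0.0606 in the 18 IPs outside the last 10 sample numbers, and 0.228 without the 2 IPs farthest from the median of Chrna3. Adult vehicle replicate 1 shows the split most plainly, with 0.0 CPM of Chrna3 and 15.1 CPM of Chrnb4. No relation to Gnrh1 was detected for either gene over the IPs. Pearson's r was 0.00612 with Chrna3 (permutation p = 0.978) and 0.206 with Chrnb4 (permutation p = 0.335), with an adjusted p of 0.988 for both. Spearman's rho was -0.00395 with Chrna3 (permutation p = 0.988) and 0.0395 with Chrnb4 (permutation p = 0.859).

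**Figure D2:**
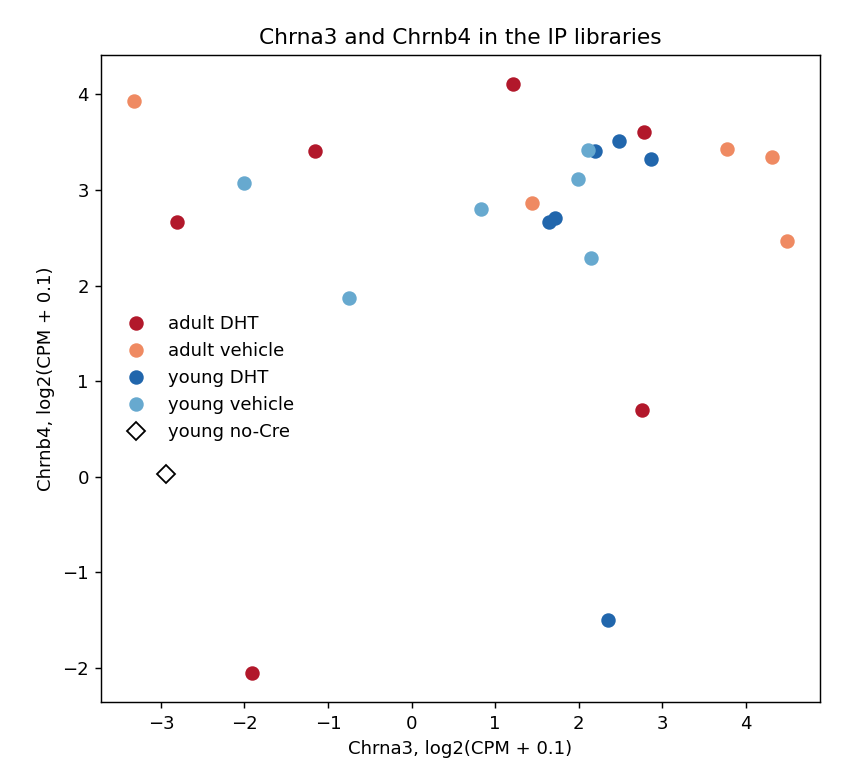
Chrna3 (x axis) against Chrnb4 (y axis), both as log2(CPM + 0.1), with 1 point for each IP library coloured by condition and an open diamond for the no-Cre IP. Low Chrna3 occurs with high and with low Chrnb4, and the no-Cre IP lies low on both axes.

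Over the means of the 8 groups, on the log2(CPM + 0.5) scale and with each gene centred, Ptger2, Frrs1, Pctp, Mdh1b and Pcdhga9 had the profiles most like Chrna3. Ptger2, a prostaglandin E2 receptor, lay at a root mean square distance of 0.28, against a median of 0.77 over the 11285 genes compared. Chrnb4 lay at 0.96 from Chrna3. For Chrnb4 itself, a comparison added after its values were seen, Prph was nearest at 0.19 and Six6 next at 0.23, against a median of 1.29. Prph encodes the intermediate filament peripherin and Six6 a homeobox factor of GnRH neurons. The nearest genes lie below the median by construction. The profiles also hold the contrast of IP and supernatant that the choice of genes used. Nothing is therefore read from these distances.

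Chrna5, the accessory subunit of the same cluster, was at the edge of detection. It averaged 0.358 CPM in IPs and 0.388 CPM in supernatants, with 3 counts or fewer in 17 of 23 IPs and 1 of 23 supernatants. Only adult DHT replicate 4 at 4.43 CPM and young DHT replicate 5 at 2.09 CPM passed 1 CPM among the IPs. The no-Cre IP had 2 counts.

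The subunits of the main brain receptors were lower on average in IP. Chrna4 averaged 7.85 CPM in IPs and 9.7 CPM in supernatants, and was lower in IP in 17 of 23 pairs, with IPs from 0.0945 to 29.7 CPM and supernatants from 4.83 to 13.3 CPM. Its ratio of means was 0.748 in adult DHT, 1.04 in adult vehicle, 0.645 in young DHT and 0.778 in young vehicle mice. Chrnb2, its usual partner, averaged 15.2 CPM in IPs and 26.0 CPM in supernatants, and was lower in IP in 22 of 23 pairs. Its IPs ran from 7.38 to 56.3 CPM, and without adult vehicle replicate 2 none of them passed 20.5 CPM. In the no-Cre pair, Chrnb2 stood at 8.35 CPM in IP and 18.8 CPM in supernatant, a ratio of 0.443. Chrna4 stood there at 7.21 CPM in IP and 8.54 CPM in supernatant, a ratio of 0.844. Chrna7, whose receptor needs no beta subunit, averaged 2.2 CPM in IPs and 3.9 CPM in supernatants, and had 3 counts or fewer in 8 of 23 IPs. Its no-Cre IP had 0 counts, for which 3 counts, the most that a count of 0 allows, equal 0.0924 CPM, beside 2.71 CPM in the no-Cre supernatant.

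Muscarinic receptor genes were also lower on average in IP. Chrm1 averaged 14.4 CPM in IPs and 20.6 CPM in supernatants, and Chrm2 6.98 CPM in IPs and 8.65 CPM in supernatants. Chrm3 averaged 1.78 CPM in IPs and 3.33 CPM in supernatants. Chrm4 averaged 4.04 CPM in IPs and 5.13 CPM in supernatants. The pairs were split for each of them: IP was higher in 6, 9, 5 and 8 of 23 pairs for Chrm1, Chrm2, Chrm3 and Chrm4 in that order. In the no-Cre pair, Chrm1 was at 10.6 CPM in IP and 11.8 CPM in supernatant, and Chrm3 at 0.524 CPM in IP and 3.36 CPM in supernatant. Chrm2 was at 7.14 CPM in that IP and 9.59 CPM in that supernatant, and Chrm4 at 3.82 and 9.32 CPM. Of the 10 genes, 0 were at least 2-fold higher and 6 at least 2-fold lower in the no-Cre IP, against 12.7% and 17.3% of genes, with 1 library a fraction and no test.

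Genes were also set side by side per kilobase of GENCODE M21 exon. That scale is rough, since the annotation behind the counts was not given. Averaged over the 4 conditions, Chrm1 (2.22 CPM per kb), Chrnb4 (2.16) and Chrnb2 (1.81) led in IPs. Chrm1 (3.18 CPM per kb), Chrnb2 (3.1) and Chrna4 (1.93) led in supernatants, where Chrnb4 (0.283) stood above Chrna5 (0.124) alone. Chrna3 was at 1.02 CPM per kb in IPs and 0.434 in supernatants. Chrm4 is left out of this order because its gene model holds coding sequence only. The leading 3 genes of the IPs had ranges over the libraries that overlap, so their order is not beyond their spread.

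Levels scattered far more in IPs than in supernatants. The SD within groups, on the log2(CPM + 0.5) scale, ran from 0.614 to 1.55 in IPs and from 0.196 to 0.586 in supernatants, and it was larger in IPs for 10 of 10 genes. Values of 3 counts or fewer made up 36 of 230 in IPs and 1 of 230 in supernatants, at like totals. They made up 10 of 60 in adult DHT IPs, 15 of 50 in adult vehicle IPs, 5 of 60 in young DHT IPs and 6 of 60 in young vehicle IPs. Over all genes tested, 6.12% to 20.8% were at 3 counts or fewer in an IP (median 10.8%) and 1.31% to 3.51% in a supernatant (median 2.32%). The part of this in the receptor values was not tested.

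**Figure D3:**
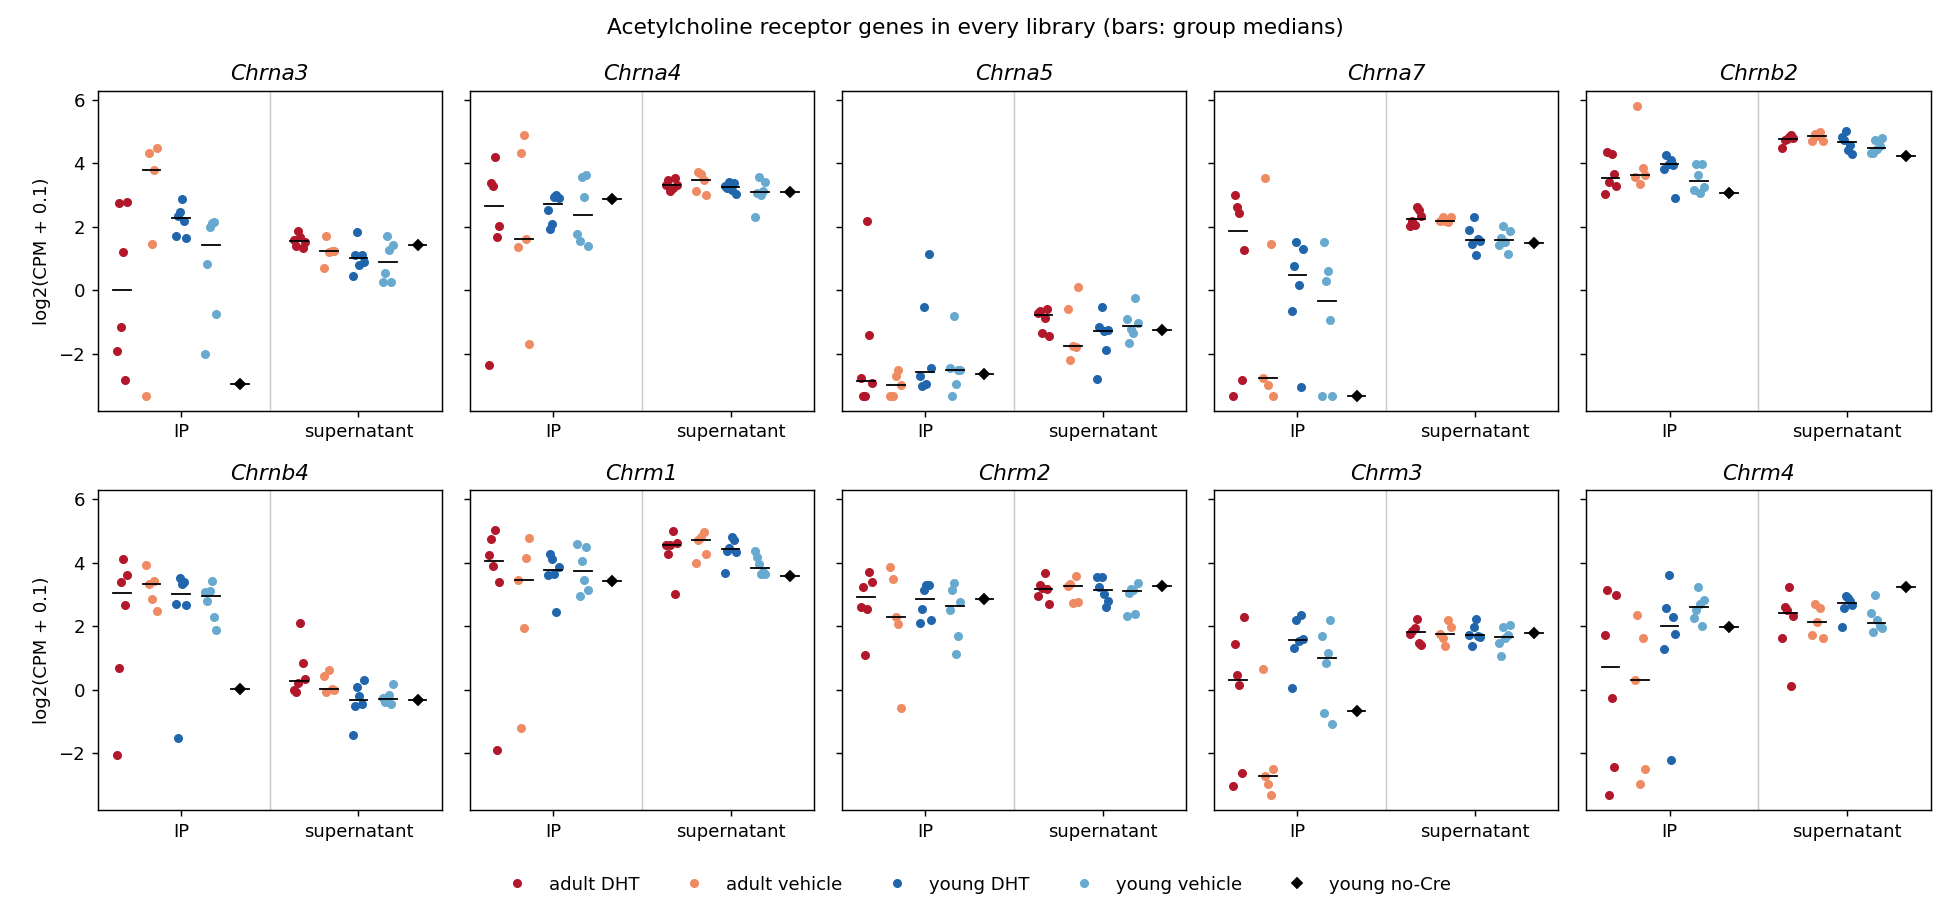
Level of each gene as log2(CPM + 0.1) in every library, with the IP groups on the left of each panel and the supernatant groups on the right; points are libraries coloured by condition, black bars are group medians and diamonds are the no-Cre libraries. Chrnb4 is high in nearly all IPs and low in supernatants, and the IP points of most other genes spread down to the level of no counts.

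The effect of prenatal DHT was tested at both ages of IP and of supernatant, with edgeR's quasi-likelihood test and Benjamini-Hochberg adjustment over all genes tested. None of the 10 genes was called in any of the 4 comparisons. The share of all genes called was 0.00629% in adult IP, 0.0% in young IP, 0.0% in adult supernatant and 0.0% in young supernatant. At an unadjusted p below 0.05, 1 of 10 passed in adult IP, near the 8.29% of all genes, and 0 passed in young IP (1.5% of all genes), adult supernatant (2.08%) and young supernatant (4.59%). DESeq2 called none. The interaction of DHT and age called 0 of 10 genes in IP and 0 of 10 in supernatant (0.0% of all genes in both), with none by DESeq2. At an unadjusted p below 0.05 it was 0 of 10 in both, against 5.39% of all genes in IP and 5.45% in supernatant.

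The gene below an unadjusted 0.05 was Chrna5 in adult IP, at 4.5 ± 1.92 (SE) on the log2 scale (adjusted p = 0.497). It had 0.0472, 0.0, 0.0, 4.43, 0.276 and 0.0317 CPM in adult DHT IPs, against 0.0, 0.0, 0.0553, 0.0751 and 0.0262 CPM in adult vehicle IPs. A single library holds nearly all of that difference, and the groups overlap. Chrna3 in adult IP averaged 2.71 ± 3.23 CPM in DHT mice and 11.7 ± 10.04 CPM in vehicle mice (SD, n = 6 and 5). Its log2 fold change was -2.15 ± 1.13 (95% interval -4.47 to 0.17, adjusted p = 0.649), and in young IP it was 0.95 ± 1.06 (adjusted p = 1.0). The interaction for Chrna3 was -3.10 ± 1.55 (adjusted p = 0.925). Chrnb4 averaged 7.94 ± 6.54 CPM in adult DHT IPs and 9.7 ± 3.72 CPM in adult vehicle IPs (SD, n = 6 and 5), a log2 fold change of -0.32 with a 95% interval from -1.83 to 1.19.

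In supernatant the intervals were narrower. Chrna7 averaged 4.85 ± 0.862 CPM in adult DHT mice and 4.59 ± 0.224 CPM in adult vehicle mice (SD, n = 6 and 5). Chrm1 in young supernatant averaged 21.5 ± 5.24 CPM in DHT mice and 15.3 ± 3.46 CPM in vehicle mice (SD, n = 6 each). The log2 fold change there was 0.46 ± 0.23 (adjusted p = 0.976). Standard errors of the DHT differences had a median of 0.996 in adult IP and 0.945 in young IP, against 0.228 in adult supernatant and 0.219 in young supernatant. Over the 10 genes, 95% intervals reached from -4.47 to 8.46 in adult IP, while no bound in supernatant lay beyond -1.45 or 1.34.

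**Figure D4:**
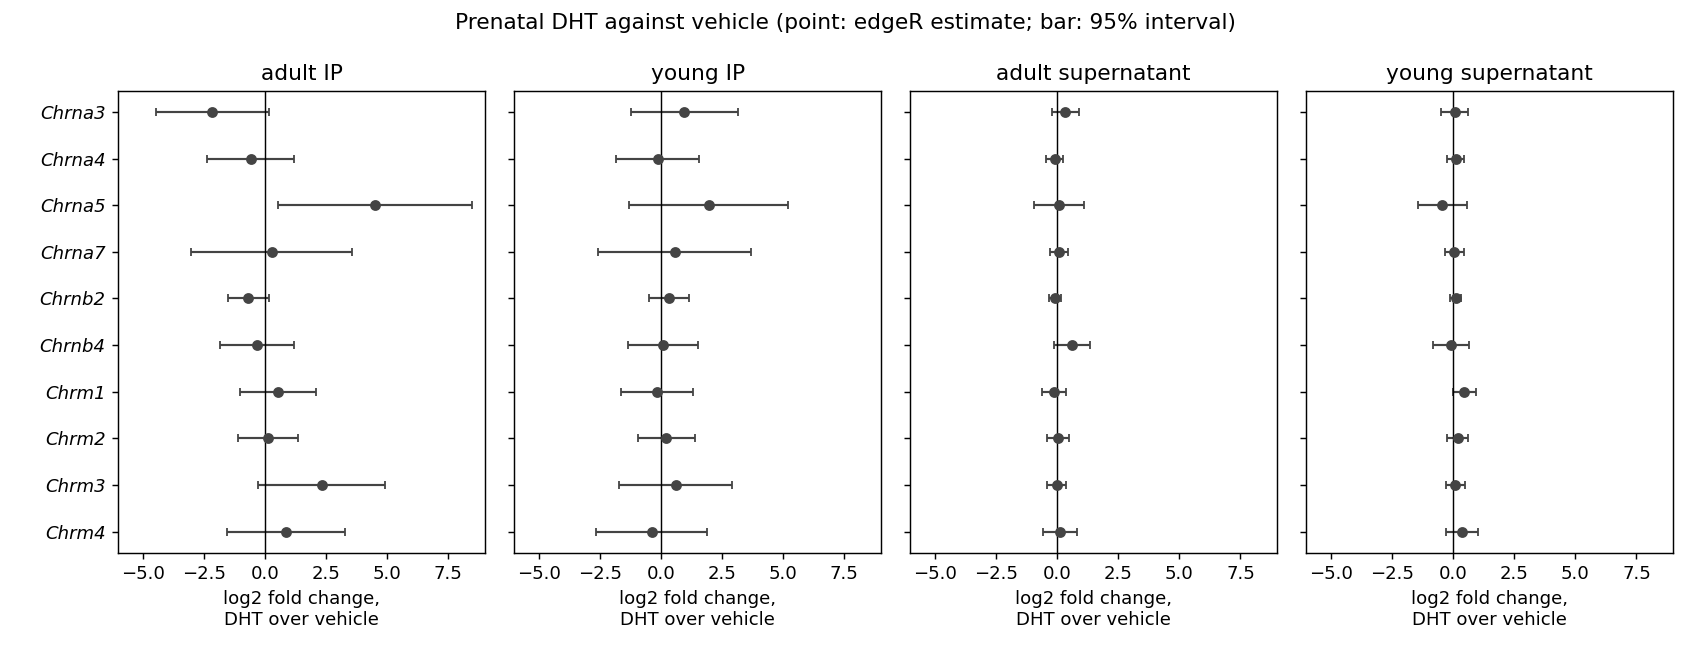
Log2 fold change of DHT over vehicle (x axis) for each gene (y axis) in adult IP, young IP, adult supernatant and young supernatant; points are edgeR estimates and bars 95% intervals. All bars cross 0 except that of Chrna5 in adult IP, which rests on 1 library, and the bars are wider in both IP panels.

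Adult and young mice were compared within each fraction and treatment. In IP, 0 of 10 genes were called for age in vehicle mice, against 3.83% of all genes. It was 0 of 10 in DHT mice, against 7.12%. At an unadjusted p below 0.05, 1 of 10 passed in vehicle mice and 0 in DHT mice, below the 17.4% and 20.4% of all genes, and DESeq2 called none. Chrnb2 in vehicle IP, the 1 that passed, had 11.8, 56.3, 10.01, 14.3 and 12.2 CPM in adult mice, against 8.33 to 15.6 CPM (median 10.8) in young mice. Its log2 fold change of 0.91 ± 0.41 (adjusted p = 0.241) was 0.08 without the adult library at 56.3 CPM.

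Chrm3 in vehicle IP had 1.49, 0.0512, 0.0276, 0.0 and 0.0786 CPM in adult mice, against 0.373 to 4.52 CPM (median 1.9) in young mice. Adult replicate 1 alone overlapped the young group. The log2 fold change was -2.63 ± 1.28 (adjusted p = 0.288), and without that library it was -5.53 (adjusted p = 0.0326). limma-voom with sample weights gave -4.87 (adjusted p = 0.0338). In DHT mice the log2 fold change of Chrm3 was -0.91 ± 1.13 (adjusted p = 0.75).

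Chrna3 in vehicle IP averaged 11.7 ± 10.04 CPM in adult mice and 2.46 ± 1.92 CPM in young mice (SD, n = 5 and 6), a log2 fold change of 2.33 ± 1.13 (adjusted p = 0.29). In DHT IP it averaged 2.71 ± 3.23 CPM in adult mice and 4.72 ± 1.55 CPM in young mice (SD, n = 6 each), with a log2 fold change of -0.77 ± 1.06 (adjusted p = 0.781). Chrnb4 showed no call in either, at 0.49 ± 0.73 in vehicle IP (adjusted p = 0.826) and 0.10 ± 0.70 in DHT IP (adjusted p = 0.966).

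In supernatant, 1 of 10 genes rose with age in vehicle mice, where 10.1% of all genes did, and 2 of 10 in DHT mice, where 9.47% did. None fell, against 10.2% and 10.5% of all genes. The counts that rose, 1 and 2 of 10, are within about 1 gene of the share of all genes. Neither is a result about receptors as a group. The median log2 fold change of the 10 genes was 0.24 in vehicle and 0.09 in DHT mice, beside 0.01 over all genes in both.

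Chrna7 rose with age under both treatments. In vehicle mice it had 4.47, 4.84, 4.42, 4.38 and 4.81 CPM in adults, against 2.1 to 3.96 CPM (median 2.9) in young mice. The groups did not overlap, as for 10.6% of genes. In DHT mice it ran from 3.95 to 6.06 CPM (median 4.7) in adults and from 2.08 to 4.81 CPM (median 2.89) in young mice, overlapping through young replicate 3 at 4.81 CPM. The log2 fold change was 0.58 ± 0.19 in vehicle (adjusted p = 0.0286) and 0.61 ± 0.18 in DHT mice (adjusted p = 0.0189). The interaction with DHT was 0.03 ± 0.26 (adjusted p = 0.99).

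Each call of Chrna7 has a limit. The last 10 sample numbers in the labels are all young libraries, 5 in each fraction, and a term for them left 0.46 in vehicle (adjusted p = 0.0785) and 0.46 in DHT mice (adjusted p = 0.117). With those libraries left out it was 0.55 in vehicle (adjusted p = 0.0308) and 0.38 in DHT mice (adjusted p = 0.257). In vehicle mice the call was also lost without adult replicate 2 (adjusted p = 0.065) and without young replicate 1 (0.0563), 4 (0.0553) or 5 (0.07). In IP, Chrna7 had log2 fold changes of 1.69 ± 1.60 in vehicle and 1.41 ± 1.54 in DHT mice (adjusted p = 0.689 and 0.705), and the age difference was not shown to differ between IP and supernatant (1.13 ± 1.54, adjusted p = 0.901, in vehicle and 0.78 ± 1.47, adjusted p = 0.946, in DHT mice).

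Chrnb4 rose with age in the supernatant of DHT mice. It ran from 0.852 to 4.21 CPM (median 1.1) in adults and from 0.275 to 1.137 CPM (median 0.704) in young mice, and the groups overlapped. The log2 fold change was 1.16 ± 0.35 (adjusted p = 0.0213). Without adult replicate 4, the library at 4.21 CPM, it was 0.64 (adjusted p = 0.117), so 1 library decides this call. Fitting the compared groups alone gave 1.16 (adjusted p = 0.064), and leaving out the last 10 sample numbers gave 1.40 (adjusted p = 0.0772). In vehicle mice Chrnb4 had 1.26, 0.859, 1.46, 0.909 and 0.901 CPM in adults, against 0.632 to 1.04 CPM (median 0.72) in young mice, with no call.

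Below the threshold, Chrm1 in vehicle supernatant had 15.8, 26.0, 27.8, 30.8 and 19.1 CPM in adult mice, against 12.3 to 20.7 CPM (median 14.2) in young mice. Its log2 fold change was 0.61 ± 0.24 (adjusted p = 0.0704), and DESeq2 gave 0.60 (adjusted p = 0.0417). Chrnb2 was at 0.27 ± 0.12 (adjusted p = 0.124), with 25.8, 30.5, 28.8, 31.4 and 25.9 CPM in adult mice and 20.01 to 27.9 CPM (median 22.4) in young mice. The interaction of age and fraction called 0 of 10 genes in vehicle mice (1.04% of all genes) and 0 of 10 in DHT mice (0.882%), with none by DESeq2. At an unadjusted p below 0.05 it was 1 and 0 of 10, against 11.7% and 11.4% of all genes, so that 1 is no more than the share of all genes. It was Chrm3 in vehicle mice, at -2.69 ± 1.142 (adjusted p = 0.293), and -5.63 without adult vehicle IP replicate 1 (adjusted p = 0.00392).

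**Figure D5:**
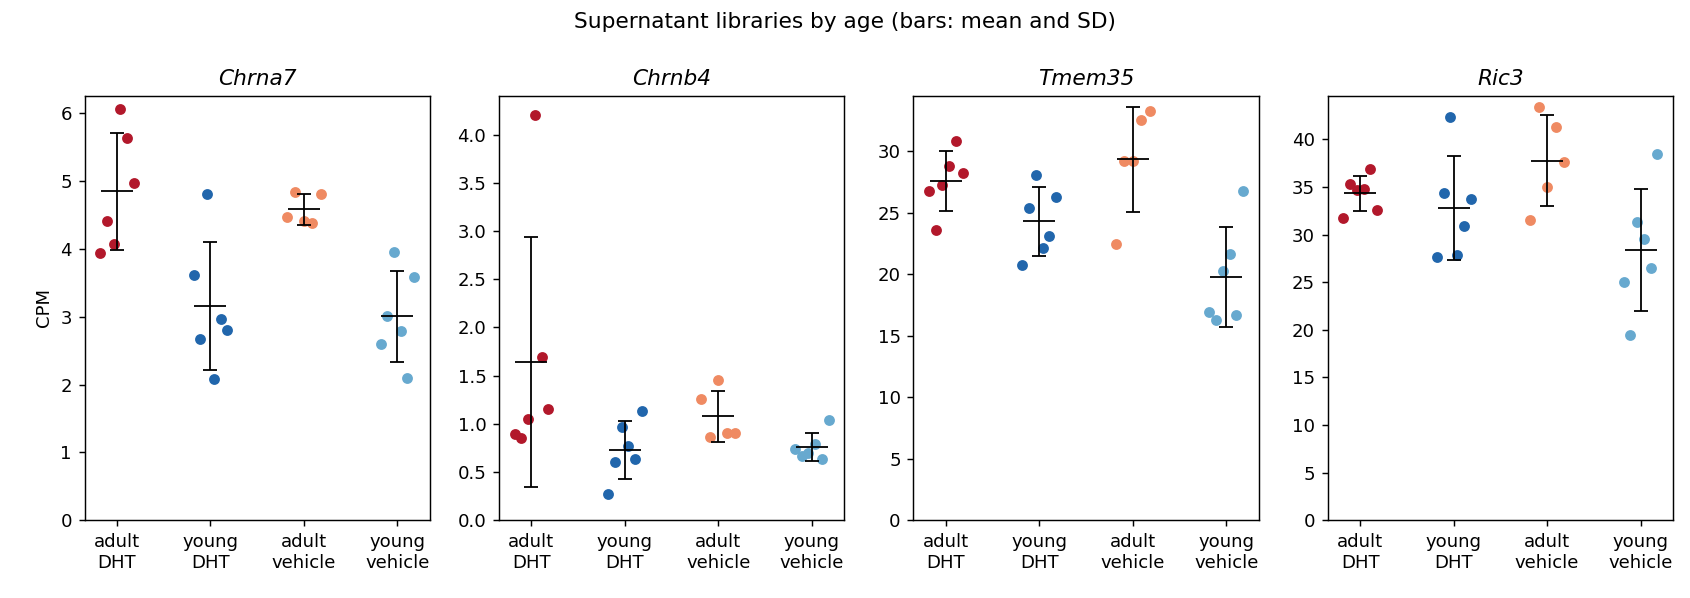
CPM of Chrna7, Chrnb4 and the receptor assembly factors Tmem35 and Ric3 in supernatant libraries of adult and young mice, by treatment; points are libraries and bars the mean and SD. Chrna7 is higher in adults under both treatments, and 1 adult DHT library at 4.21 CPM stands apart for Chrnb4.

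The makeup of the supernatant also differed with age. The summed level of 5 oligodendrocyte markers ran from 1510 to 3470 CPM in adult DHT and from 3370 to 5060 CPM in young DHT mice, and from 1600 to 2600 CPM in adult vehicle and from 3570 to 4830 CPM in young vehicle mice. All 5 were lower in adults under both treatments. For 5 general neuron markers the sums were 4310 to 5030 CPM in adult DHT and 4160 to 4590 CPM in young DHT mice, with 2 higher and 1 lower in adults. In vehicle mice they were 4230 to 4920 CPM in adults and 4280 to 4590 CPM in young mice, with 2 higher and 2 lower. Markers of oligodendrocyte precursors summed to 223 to 295 CPM in adult and 448 to 542 CPM in young vehicle supernatants. In DHT supernatants the sums were 218 to 321 CPM in adults and 388 to 543 CPM in young mice. Of these 3 markers, 1 was lower in adults under each treatment. The makeup of the IPs differed with age as well, where 3.83% of all genes were called in vehicle and 7.12% in DHT mice. Their oligodendrocyte markers summed to 985 to 3240 CPM in adult DHT and 2860 to 4520 CPM in young DHT mice, with 4 of 5 lower in adults. In vehicle IPs the sums were 1210 to 1780 CPM in adults and 2890 to 4000 CPM in young mice, with 2 of 5 lower. Markers of GABA neurons in DHT IPs summed to 1330 to 2890 CPM in adults and 913 to 1220 CPM in young mice, with 2 of 3 higher. In vehicle IPs they summed to 1110 to 2450 CPM in adults and 616 to 1310 CPM in young mice, with 0 of 3 called. Astrocyte markers summed to 158 to 295 CPM in adult and 351 to 501 CPM in young vehicle IPs, with 1 of 5 lower. Oligodendrocyte precursor markers summed to 118 to 174 CPM in adult and 241 to 308 CPM in young vehicle IPs, with 1 of 3 lower. In DHT IPs the sums of adult and young mice overlapped for both lists. No marker of these lists was at 0 throughout a group. The part of these differences in the changes with age, of receptors or of the genes around them, was not tested.

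Genes around the receptors were read from 5 lists. The age calls of list genes come from the fit without the term for the last sample numbers, which are all young libraries. How these calls change with that term, or without those libraries, is not given here. They are therefore not shown to be firmer than the calls of Chrna7. Among 8 genes of nicotinic receptor assembly and modulation (median log2 fold change 0.07 in vehicle and -0.09 in DHT supernatant), Tmem35 and Ric3 rose with age in vehicle supernatant. The first encodes the chaperone NACHO, and both products help Chrna7 receptors to form. Tmem35 had 22.4, 29.2, 29.2, 32.5 and 33.3 CPM in adults, against 16.2 to 26.8 CPM (median 18.6) in young mice (log2 fold change 0.54 ± 0.12, adjusted p = 0.00287). Ric3 averaged 37.8 ± 4.75 CPM in adults and 28.4 ± 6.41 CPM in young mice (SD, n = 5 and 6; log2 fold change 0.39 ± 0.13, adjusted p = 0.0407). In DHT mice neither was called. Lynx1, whose product damps nicotinic receptors, fell with age in vehicle mice (-0.30 ± 0.08, adjusted p = 0.00788) and in DHT mice (-0.32 ± 0.07, adjusted p = 0.00348), and its relative Lypd1 fell in DHT mice (-0.33 ± 0.09, adjusted p = 0.0101). In DHT IP, Lypd1 (-0.62 ± 0.18, adjusted p = 0.0318) and Ly6e (-0.58 ± 0.16, adjusted p = 0.0255) fell with age.

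Of 10 genes of the Gq arm and the M-current, 3 rose with age in vehicle supernatant, 4 in DHT supernatant, 0 in vehicle IP and 3 in DHT IP, and none fell. Of all genes 10.1%, 9.47%, 2.04% and 3.8% rose in that order. The list's median log2 fold change was 0.16, 0.29, 0.15 and 0.85 in that order, against 0.01 to 0.03 over all genes. Itpr1, the IP3 receptor of internal calcium stores, averaged 33.9 ± 7.74 CPM in adult and 21.5 ± 4.42 CPM in young vehicle supernatants (SD, n = 5 and 6; 0.63 ± 0.15, adjusted p = 0.00537). Its log2 fold change was 0.69 ± 0.15 in DHT supernatant (adjusted p = 0.00182) and 1.52 ± 0.32 in DHT IP (adjusted p = 0.00471). Also called were Kcnq5 in vehicle supernatant, Gna11 and Prkca in DHT supernatant and Prkcb in DHT IP, with log2 fold changes from 0.22 to 0.65.

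Of 10 genes of the Gi/o arm, 4 rose with age in vehicle supernatant, 2 in DHT supernatant, 1 in vehicle IP and 1 in DHT IP, and none fell. Beside the same shares of all genes, 2 of 10 in DHT supernatant and 1 of 10 in each IP comparison are within about 1 gene of the background. The medians were 0.22, 0.11, 0.22 and 0.29. Gnai1, a Gi alpha subunit, was called in all 4, at 0.26 ± 0.08 in vehicle supernatant (adjusted p = 0.0254), 0.36 ± 0.08 in DHT supernatant (adjusted p = 0.00223), 0.77 ± 0.15 in vehicle IP (adjusted p = 0.00526) and 0.61 ± 0.15 in DHT IP (adjusted p = 0.0111). Kcnj3, a subunit of the inwardly rectifying channels that muscarinic receptors open, rose by 0.56 ± 0.17 in vehicle (adjusted p = 0.0214) and 0.50 ± 0.17 in DHT supernatant (adjusted p = 0.0336). Kcnj5, of the same channels, and Adcy5, an adenylyl cyclase, rose in vehicle supernatant at 0.67 ± 0.23 (adjusted p = 0.0428) and 0.53 ± 0.18 (adjusted p = 0.0321).

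Among 7 genes of acetylcholine synthesis, transport and breakdown, Chat, the enzyme that makes acetylcholine, was higher with age in DHT IP alone of the age comparisons. It ran from 42.8 to 112.0 CPM (median 85.1) in adults and from 25.5 to 43.3 CPM (median 39.0) in young mice (log2 fold change 1.18 ± 0.29, adjusted p = 0.0127), with 1 adult library inside the young range. Slc18a3, the vesicular transporter encoded in the first intron of Chat, ran from 3.27 to 47.9 CPM in adults and from 13.5 to 35.7 CPM in young mice of the same groups. Over the 4 conditions, Chat averaged 50.9 CPM in IPs and 60.2 CPM in supernatants. The young no-Cre IP held 57.7 CPM of Chat, above every young IP with Cre, of which the highest had 53.1 CPM. Whether the rise of Chat lies in GnRH neurons was not tested. Prima1, which anchors acetylcholinesterase in the membrane, fell with age in vehicle supernatant (-0.63 ± 0.16, adjusted p = 0.00741). None of the 11 other nicotinic and muscarinic receptor genes, of which 4 could be tested in IP and 7 in supernatant, was called for age. No gene of the 5 lists was called for DHT, for its interaction with age or for the interaction of age and fraction.

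Between the fractions, 2 of the 42 tested genes of these lists were higher in IP and 15 lower, against 24.4% and 21.7% of all genes. A fit that paired each IP with the supernatant of the same condition and number called 29 of them in all, against 17 without the pairs. Ly6h, which modulates nicotinic receptors, averaged 512.0 CPM in IPs and 429.0 CPM in supernatants (log2 fold change 0.31 ± 0.09, adjusted p = 0.0054), and 277.0 and 281.0 CPM in the no-Cre IP and supernatant. Adcy1, a neuronal adenylyl cyclase, was at 0.89 ± 0.17 (adjusted p = 2.04e-05) and was also higher in the no-Cre IP, at 40.7 CPM against 14.1 CPM in the no-Cre supernatant. Lynx1 was lower in IP, with 107.0 CPM in IPs and 220.0 CPM in supernatants (-0.99 ± 0.06, adjusted p = 8.32e-18), as it was in the no-Cre pair with 112.0 and 244.0 CPM. The alpha subunits Chrna2 and Chrna6 and the beta subunit Chrnb3 were lower in IP by the test, at -2.80 ± 0.63, -2.32 ± 0.72 and -2.01 ± 0.81 (adjusted p = 0.000257, 0.00741 and 0.0388). All 3 averaged under 1 CPM in both fractions, Chrna2 was at 2.43 CPM in the no-Cre IP and 0.376 CPM in the no-Cre supernatant, and the mean CPM of Chrna6 and Chrnb3 was higher in IPs (0.501 and 0.239) than in supernatants (0.223 and 0.176), against the fitted sign. Also lower in IP were Slc18a3, Prima1, Colq, Gnaq, Gna11, Kcnq3, Adcy5, Gnai1, Gnai2, Gnao1 and Kcnj9, with log2 fold changes from -1.66 to -0.27.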

How the data were processed

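RNA of the preoptic area was sequenced in 48 libraries, 46 from mice with Cre and 2 controls, after poly(A) priming with a kit that does not mark strand, per the labels' protocols. The submitters' processing notes name FastQC 0.11.3, TopHat2 2.0.13, Bowtie2 2.2.1, HTSeq 0.6.1, Cuffdiff 2.1.1 and DESeq2 1.14.1 with build mm10. For the gene annotation behind the counts, the name was not given in the sources used here. The authors deposited estimated counts per gene, of which 98.5% are whole numbers; they were rounded to whole counts here.

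CPM was computed from library totals. Tests used edgeR 4.0.16 (R 4.3.3; robust quasi-likelihood, TMM, filterByExpr with a minimum count of 10) in 1 fit per fraction (15890 genes in IP, 16286 in supernatant) and 1 over 46 libraries (16660 genes), with Benjamini-Hochberg adjustment and a threshold of 0.05; 120 values of the receptor genes were tested. The steps were tested on simulated counts. Alternatives were DESeq2 1.42.0, limma 3.58.1 (voom), other size factors and filters, a term for sample order and leaving out libraries. A block was also tried, for the replicate number within a fraction and for pairs of IP and supernatant in the fit over 46 libraries.

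The receptor genes and all gene lists were chosen with earlier results of these data known. All 10 receptor genes are named, with the list genes that were called, except 1 that is not reported here. Replicates are separate libraries of a group, and p-values cover the spread between them, which may be technical in part.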

Additional observations from a re-analysis of the deposited data

Results flagged for a closer look

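Dixon's criterion set the highest library apart from the others of its group in 8 of 80 combinations of gene and group. These were 6 in IP and 2 in supernatant. Chance alone meets the criterion in about 1 of 20 groups of normally distributed values, which levels near 0 need not be. The share over all genes is not given here, so 8 of 80 is not read as an excess. In IP, Chrna5 was at 4.43 CPM in adult DHT replicate 4, where the others ran from 0.0 to 0.276 CPM. It was at 2.09 CPM in young DHT replicate 5, where the others ran from 0.0253 to 0.599 CPM, and at 0.477 CPM in young vehicle replicate 3, where the others ran from 0.0 to 0.0855 CPM. Adult vehicle replicate 2 held 2 of the 8, with Chrna7 at 11.6 CPM (others 0.0 to 2.65 CPM) and Chrnb2 at 56.3 CPM (others 10.01 to 14.3 CPM). Chrm3 was at 1.49 CPM in adult vehicle replicate 1 (others 0.0 to 0.0786 CPM). In supernatant, Chrna3 was at 3.45 CPM in young DHT replicate 3 (others 1.26 to 2.07 CPM) and Chrnb4 at 4.21 CPM in adult DHT replicate 4 (others 0.852 to 1.69 CPM). The IP and the supernatant numbered 4 of adult DHT mice thus both held an outlying receptor value, in different genes of the chromosome 9 cluster.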

How the results depend on the processing

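The count of receptor genes called was 0 for DHT and for its interaction with age under every alternative run, in both fractions. For age in vehicle IP (0 called) it was 1 with limma-voom and 0 to 1 with 1 library left out. For age in vehicle supernatant (1 called) it was 2 with DESeq2, 2 with limma-voom, 2 with the compared groups alone, 0 with the term for the last 10 sample numbers, 2 with those libraries left out and 0 to 2 with 1 library left out. For age in DHT supernatant (2 called) it was 1 under the 1 CPM filter, 1 with the sample-order term, 1 with the compared groups alone, 0 with the last 10 sample numbers left out and 1 to 3 with 1 library left out; the third was Chrna3 without young DHT replicate 3 (0.72, adjusted p = 0.046). For the interaction of age and fraction in vehicle mice (0 called) it was 0 to 1 with 1 library left out. The causes were not tested. Leaving out the last 10 sample numbers was chosen after seeing the data, as were the ratios over young libraries alone.

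The block was the replicate number in fits of 1 fraction, and the pair of IP and supernatant in the fit of 46 libraries. It changed no call of a receptor gene (Chrna7, 0.61 in vehicle and 0.64 in DHT supernatant). With the pairs, 29 calls were made among the other list genes between fractions, against 17 without them (16 to 24 with 1 library left out). The IP and supernatant of 1 condition and number had deviations that correlated between -0.0704 and 0.403, with 17 of 23 above 0.1, and 19 of 23 IPs correlated best with their own supernatant. That is a hint of pairing from the data, and the labels do not state it. The p-values given for differences between fractions, and for age by fraction, come from the fit without pairs and take no account of it. Same-numbered libraries of 1 fraction had a median correlation of 0.0306 over 66 pairs, so the numbers do not pair those. Receptor genes with at least 2-fold higher IP levels numbered 2, and 1 (Chrnb4) as the mean of pair ratios, 1 over young libraries alone and 2 to 2 with 1 library left out. Those at least 2-fold lower numbered 0, and 4 as the mean of pair ratios, 1 by edgeR's fitted value, 1 over young libraries alone, 1 without the last 10 sample numbers and 0 to 2 with 1 library left out. Of 117 receptor values not called, 59 changed sign under at least 1 alternative and 5 passed in at least 1; 0 of the 3 called values changed sign. IP counts limit what can be seen, since 36 of 230 values there rest on 3 counts or fewer.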
